A study of Mus musculus with 6 samples.

Results

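AU-rich mRNA decay factors are proteins that decide how long short-lived messages last. The 9 genes described here are Zfp36, Zfp36l1, Zfp36l2, Rc3h1, Rc3h2, Hnrnpd, Elavl1, Btg1 and Btg2. They were taken as a named set by no rule on their values, though with earlier results of these data known. Each was read from the probe set that names it alone, the brightest where there were several, out of 19938 genes with such a probe set. All 9 passed the intensity filter (a 6-array mean of at least 7.49 on the log2 scale), as did 12649 genes in all. The arrays held RNA of peritoneal macrophages from C57BL/6 mice aged 8 weeks, drawn into the cavity by 2 ml of thioglycolate broth over 72 h. The cells that stuck to plastic within 4 h were kept for 24 h more, and every culture then received lipopolysaccharide (LPS, a bacterial cell wall component) at 100 ng/ml for 6 h. Of the 6 arrays, 3 were labelled KLF2∆/∆, from mice with Cre in both copies of the lysozyme gene Lyz2 and floxed Klf2. The other 3 were labelled LysMCre/Cre and carried the same Cre. Lyz2-driven Cre acts in myeloid cells, so non-myeloid cells in a culture would keep an intact Klf2 gene. The design speaks of 3 pairs of mice, 1 of each genotype, but the labels do not say which arrays form a pair or tie an array to a single mouse, and each p-value therefore measures only how far these arrays scatter. No untreated culture was analysed here.

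Many cytokine, chemokine and growth factor messages carry runs of A and U bases that mark them for fast decay. ZFP36 (tristetraprolin) and its paralogues bind these runs through CCCH zinc fingers and recruit the CCR4-NOT complex, which shortens the poly(A) tail, after which the message is decapped or degraded by the exosome. In macrophages exposed to LPS, ZFP36 is induced and limits TNF production, while the kinase MK2, downstream of p38, phosphorylates it and holds it inactive. Roquins (Rc3h1, Rc3h2) bind stem-loops instead, HNRNPD (AUF1) can promote decay, ELAVL1 (HuR) stabilises messages, and BTG1 and BTG2 bring the deadenylase to messages and are known for holding cells in quiescence.

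The deleted gene went against its label. Klf2 gave log2 intensities of 9.10, 9.25 and 9.21 in the arrays labelled KLF2∆/∆, against 8.88, 8.97 and 8.94 in the LysMCre/Cre arrays (change 0.26 ± 0.064 SE, limma adjusted p = 0.00398, and 0.0522 without moderation of the variances). Which exons its probes cover is not known here, so the signal cannot check the deletion, and each direction below is one between arrays labelled one way and the other. Lyz2, the gene that carries Cre, changed by 0.0050 ± 0.057 (SE, limma adjusted p = 0.964). Across arrays, median log2 intensity ran between 7.85 and 7.90, and the median SD of a gene was 0.080 in the arrays labelled KLF2∆/∆ and 0.053 in the LysMCre/Cre arrays. Of 18 listed macrophage markers 15 lay above the intensity filter and were tested, and 8 rose while 3 fell (median change 0.15). Those with the smallest p were Fcgr1 (0.47), Marco (-0.58) and C1qb (0.23), and Cd14 and Itgam fell as Marco did. The summed linear intensity of the 15 was 80441 to 81940 in KLF2∆/∆ arrays against 73779 to 74860 in LysMCre/Cre arrays. Changes between the groups cannot show what the cells are. Markers of other cells moved with the label as well. Of 13 tested fibroblast markers 12 fell, led by Sparc, Pdgfra and Col1a2, with a summed intensity of 12581 to 13636 in the arrays labelled KLF2∆/∆ and 21535 to 21675 in LysMCre/Cre arrays. Of 9 mesothelial markers 8 fell, led by Upk1b, Lrrn4 and Wt1, with sums of 3609 to 3970 in KLF2∆/∆ arrays and 5953 to 6109 in LysMCre/Cre arrays. Of 13 markers of resident peritoneal macrophages 11 fell, led by Prg4, Vsig4 and Fn1, with sums of 21591 to 23013.5 in the arrays labelled KLF2∆/∆ and 34044 to 34793 in LysMCre/Cre arrays. These sums rest mostly on Fn1 and Thbs1, the brightest of the list (log2 means of 13.81 and 13.21 in LysMCre/Cre arrays). In bulk RNA, fewer cells of a type and less RNA per cell cannot be told apart. Of 7 tested neutrophil markers 4 rose (Mmp8, Csf3r and Fcnb first, with Ly6g, Cxcr2 and S100a8 below the filter), all 4 tested mast cell markers fell (Cpa3, Tpsb2 and Hdc first), and 1 of 4 dendritic cell markers fell (Ccr7). Fcnb lost its call without any single array other than KLF2∆/∆ replicate 2 (limma adjusted p 0.0631 to 0.137), and Hdc without LysMCre/Cre replicate 1 (0.0505). Of 15 alternatives for Fcnb 8 ended its call, and Hdc also lost its own without moderation of the variances (0.0748). Of 8 listed B cell markers 4 were tested (Blk, Pax5 and Cd79b first), and of 10 listed T and NK cell markers 2 (Cd3e, Cd8a). None passed, and 0 did at an unadjusted limma p below 0.05. Below the filter and untested, Ms4a1, Klrb1c and Ncr1 lay wholly higher in KLF2∆/∆ arrays (changes of 0.40, 0.24 and 0.24). The other markers of these lists below the filter overlapped between groups.

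The 250 bases before the annotated start of the members that moved are shown because KLF proteins read CACCC in DNA. Bases after the start were left out by choice and not searched. Those shown come from RefSeq, build GRCm38.p6, through a table of promoters in which 8 of the 9 members were matched, all but Zfp36l2. Zfp36 lies on the minus strand at chr7:28379229-28379478 and Zfp36l1 on the minus strand at chr12:80113014-80113263. Capitals mark a CArG box in Zfp36, the element that serum response factor binds, and the letters CACCC and TATAAA in Zfp36l1.
Zfp36: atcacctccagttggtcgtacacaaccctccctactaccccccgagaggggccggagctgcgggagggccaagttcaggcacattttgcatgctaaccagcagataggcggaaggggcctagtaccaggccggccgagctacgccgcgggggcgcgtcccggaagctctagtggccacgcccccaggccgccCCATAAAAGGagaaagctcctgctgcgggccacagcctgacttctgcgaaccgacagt
Zfp36l1: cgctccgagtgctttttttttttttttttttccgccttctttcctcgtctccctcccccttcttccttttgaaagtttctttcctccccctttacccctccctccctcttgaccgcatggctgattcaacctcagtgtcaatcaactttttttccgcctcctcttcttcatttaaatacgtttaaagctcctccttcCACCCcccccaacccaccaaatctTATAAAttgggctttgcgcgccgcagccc
On either strand, CACCC was found in 3 of the 8 windows (Rc3h1, Elavl1 and Zfp36l1) and in 52% of all 32851 windows of this length. TATAAA, the letters of the TATA box, was in 2 of the 8 (Btg1 and Zfp36l1) and in 12.4% of all. That share counts the letters anywhere in a window and on either strand, not only where a TATA box lies. The CArG box was in Zfp36 and in 1.47% of all. In Zfp36 the CArG box begins 58 bases before the start. In Zfp36l1 the CACCC begins 53 bases and the TATAAA 29 bases before it, and the motifs do not overlap. Only these patterns were searched for, so a window without CACCC may still hold other letters that KLF proteins read. These are matches of letters and were not tested against any measurement.

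Within the set, Zfp36l1 was clearly lower and Zfp36 modestly higher in the arrays labelled KLF2∆/∆, and the other 7 did not pass the test. Groups were compared with limma over all 12649 tested genes, with Benjamini-Hochberg adjusted p below 0.05 as the threshold, and each change is the mean log2 intensity of KLF2∆/∆ arrays minus that of LysMCre/Cre arrays, with n = 3 arrays a group. Of the 9 members, 1 rose, where 13.6% of all tested genes rose, and 1 fell, where 16.2% of all did. The 2 calls together make 22.2% of the set, against 29.8% of the tested genes called in either direction, so the share called in the set lay at or below the array's own. Its median change was -0.061, and that of all tested genes 0.0019. A change below 0 was measured for 8 of the 9 members and for 49.5% of all tested genes. Groups did not overlap for 3 of the 9, where 40.8% of tested genes had no overlap: Zfp36 lay wholly higher, as did 19.3% of tested genes, and Zfp36l1 and Hnrnpd wholly lower, as did 21.4%.

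**Figure D1:**
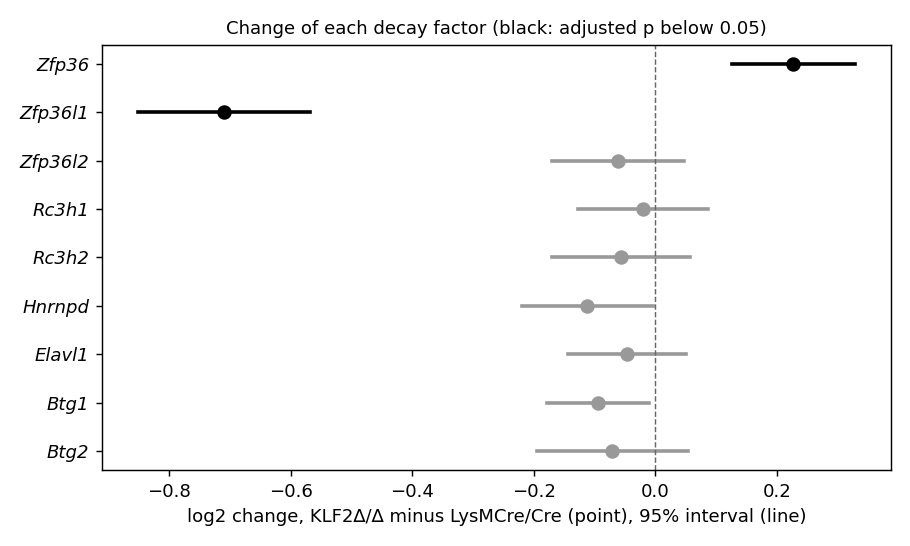
Change of each of the 9 decay factors on the log2 scale, KLF2∆/∆ minus LysMCre/Cre (points), with limma's 95% interval (lines) and 0 as a dashed line. Black marks the 2 members past an adjusted p of 0.05, Zfp36l1 at -0.71 and Zfp36 at 0.23, and the 7 members in grey lie between -0.11 and -0.020.

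The ZFP36 family held both calls. Zfp36 encodes tristetraprolin, the member best known for TNF decay in macrophages. Its log2 intensity was 12.06, 11.89 and 11.87 in the arrays labelled KLF2∆/∆, against 11.72, 11.68 and 11.74 in the LysMCre/Cre arrays. Every KLF2∆/∆ array lay above every LysMCre/Cre array, replicate 1 farthest. The mean was 11.94 ± 0.10 in KLF2∆/∆ arrays and 11.71 ± 0.031 in LysMCre/Cre arrays (SD, n = 3 each), a change of 0.23 ± 0.048 (SE) or 1.17-fold, with limma adjusted p = 0.00108. Without KLF2∆/∆ replicate 1 the change was 0.17 with adjusted p = 0.00745. Of 16 alternatives, leaving the variances unmoderated was the only one that ended the call (limma adjusted p = 0.093, the others from 0.000221 upwards). Of all tested genes, 19.2% changed by more in either direction.

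Zfp36l1 encodes a paralogue that is also known for restraining proliferation in lymphocyte development. It read 8.76, 8.74 and 8.57 in the arrays labelled KLF2∆/∆, against 9.47, 9.39 and 9.34 in the LysMCre/Cre arrays. The groups lay far apart, and the gap between them exceeded the range within either. Means were 8.69 ± 0.11 in KLF2∆/∆ arrays and 9.40 ± 0.067 in LysMCre/Cre arrays (SD, n = 3 each), a change of -0.71 ± 0.068 (SE), 1.64-fold lower, with adjusted p = 8.77e-08 and an interval of -0.85 to -0.57. It ranked 199 among tested genes by size of fall, and 1.91% changed by more in either direction. The call stood under all 16 alternatives, with changes of -0.74 to -0.65 and adjusted p of 6.34e-11 to 0.013. Not all of them could have ended it: the second deposited table holds the same values, and averaging leaves a gene with a single probe set as it was. In the same arrays fibroblast markers had a median change of -0.50, mesothelial markers of -0.89 and resident macrophage markers of -0.61, and their part in the lower Zfp36l1 signal was not tested.

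Zfp36l2, the third paralogue, known for its role in blood stem cells and oocytes in mice, read 11.19, 11.25 and 11.35 in KLF2∆/∆ arrays and 11.28, 11.41 and 11.28 in LysMCre/Cre arrays. The groups overlapped. The change was -0.061 ± 0.052 (SE, adjusted p = 0.436), with an interval of -0.17 to 0.047.

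**Figure D2:**
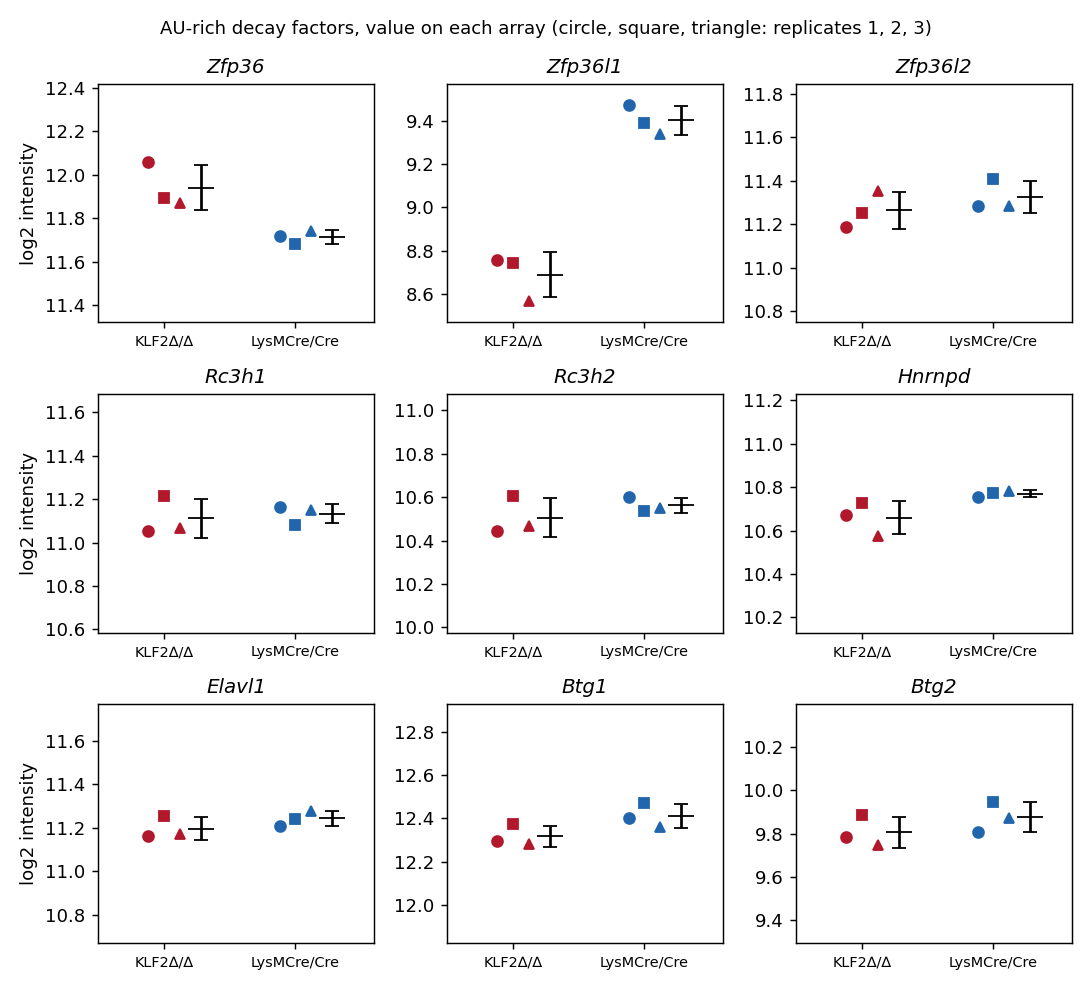
Log2 intensity of each decay factor on every array, KLF2∆/∆ (red) left of LysMCre/Cre (blue), with circles, squares and triangles for replicates 1, 2 and 3 and bars for mean ± SD (n = 3). All panels span the same log2 range, but levels of different genes come from different probe sets and cannot be ranked. Zfp36 and Zfp36l1 separate in opposite directions and Hnrnpd by a narrow gap, while the other 6 overlap.

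Whether paralogues changed unequally was read from their difference within each array, which cancels only a shift that an array gives equally to both. The difference of Zfp36l1 minus Zfp36 ran between -3.30 and -3.15 in the arrays labelled KLF2∆/∆ and between -2.40 and -2.25 in the LysMCre/Cre arrays, so the changes of the 2 genes differed by -0.94. For Zfp36l1 minus Zfp36l2 it was -2.78 to -2.43 in KLF2∆/∆ arrays and -2.02 to -1.81 in LysMCre/Cre arrays, a difference in change of -0.65. For Zfp36l2 minus Zfp36 it was -0.87 to -0.52 in KLF2∆/∆ arrays and -0.46 to -0.27 in LysMCre/Cre arrays, a difference in change of -0.29. Without KLF2∆/∆ replicate 1 the last came to -0.19. None of these 3 pairs overlapped between groups, and neither did Zfp36 or Zfp36l1 taken alone. Each of the 3 differences follows from the other 2, and the share of other gene pairs without overlap was not computed. Each pair gave an exact two-sided permutation p of 0.1, the smallest that 3 arrays against 3 allow. After Benjamini-Hochberg adjustment over 5 pairs it was 0.167, so this exact test cannot reach 0.05 here. The differences of Rc3h1 minus Rc3h2 (difference in change 0.036, exact permutation p = 0.2) and of Btg1 minus Btg2 (-0.024, exact permutation p = 0.7) overlapped between groups.

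**Figure D3:**
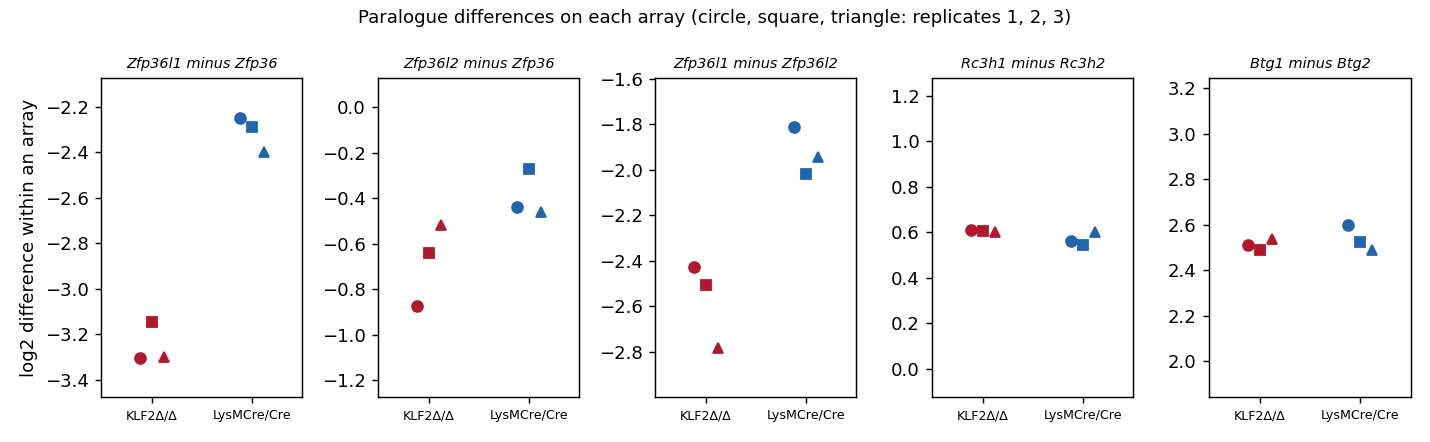
Log2 difference between 2 paralogues within each array, KLF2∆/∆ (red) left of LysMCre/Cre (blue), with circles, squares and triangles for replicates 1, 2 and 3. Only a shift between the groups can be read, not the height itself, since the genes have different probes. The 3 pairs within the ZFP36 family separate, and the roquin and BTG pairs do not.

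The roquins, RING-finger proteins that bind stem-loops in messages such as Icos and Tnf, did not pass. Rc3h1 read 11.05, 11.22 and 11.07 in the arrays labelled KLF2∆/∆ and 11.16, 11.08 and 11.15 in the LysMCre/Cre arrays, with replicate 2 the highest of its group in the first and the lowest in the second. Its change was -0.020 ± 0.051 (SE, adjusted p = 0.826, interval -0.13 to 0.088). A dimmer second probe set of Rc3h1 read 9.53, 9.51 and 9.39 in KLF2∆/∆ arrays and 9.61, 9.62 and 9.65 in LysMCre/Cre arrays, with no overlap. Tested among all probe sets, it changed by -0.16 ± 0.059 (SE, adjusted p = 0.0702), so the 2 probe sets of this gene differed in size and neither passed. Rc3h2 read 10.45, 10.61 and 10.47 in KLF2∆/∆ arrays and 10.60, 10.54 and 10.55 in LysMCre/Cre arrays, a change of -0.056 ± 0.054 (SE, adjusted p = 0.507). The values overlapped, again with KLF2∆/∆ replicate 2 highest in its group. Neither gene reached an unadjusted limma p of 0.05 in its brighter probe set.

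Hnrnpd encodes AUF1, a set of isoforms of an AU-rich binding protein that can speed decay. It read 10.67, 10.73 and 10.58 in the arrays labelled KLF2∆/∆, against 10.75, 10.77 and 10.78 in the LysMCre/Cre arrays. The LysMCre/Cre arrays lay close together and just above all the others. The change was -0.11 ± 0.051 (SE), 1.08-fold lower, and did not pass (limma adjusted p = 0.114, and 0.0423 before adjustment). The call was gained without KLF2∆/∆ replicate 2 (-0.15, adjusted p = 0.0337) and with quantile normalization applied again (-0.12, adjusted p = 0.0286). Elavl1 encodes HuR, which competes for the same runs and protects messages. It read 11.16, 11.26 and 11.17 in KLF2∆/∆ arrays and 11.21, 11.24 and 11.28 in LysMCre/Cre arrays, and the groups overlapped. Its change was -0.046 ± 0.046 (SE, adjusted p = 0.519, interval -0.14 to 0.050).

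BTG1 and BTG2 are small anti-proliferative proteins that link the CCR4-NOT deadenylase to poly(A)-binding protein. Btg1 read 12.29, 12.37 and 12.28 in the arrays labelled KLF2∆/∆ and 12.40, 12.47 and 12.36 in the LysMCre/Cre arrays. The groups overlapped only through KLF2∆/∆ replicate 2 and LysMCre/Cre replicate 3. The change of -0.095 ± 0.040 (SE) did not pass (adjusted p = 0.0842), but did without KLF2∆/∆ replicate 2 (-0.12, adjusted p = 0.0434) and with quantile normalization applied again (-0.12, adjusted p = 0.0347). Btg2 read 9.79, 9.88 and 9.75 in KLF2∆/∆ arrays and 9.81, 9.95 and 9.87 in LysMCre/Cre arrays, with overlap and a change of -0.071 ± 0.060 (SE, adjusted p = 0.437). Replicate 2 was the highest KLF2∆/∆ array for 6 of the 9 members (Rc3h1, Rc3h2, Hnrnpd, Elavl1, Btg1 and Btg2) and for 49% of all tested genes. The SD was larger in KLF2∆/∆ arrays than in LysMCre/Cre arrays for 8 of 9 members and for 69.5% of tested genes. Of the other members of the BTG and TOB family, Tob1 changed by -0.15 ± 0.082 (SE, adjusted p = 0.206) and Tob2 by 0.044 ± 0.074 (SE, adjusted p = 0.721). Without KLF2∆/∆ replicate 3, Tob1 passed (-0.23, adjusted p = 0.0403). Btg4 lay below the intensity filter.

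Among all tested genes, the patterns over the 6 arrays most like that of Zfp36l1 were those of Plxdc2 (Pearson's r = 0.9985), H2-Ab1 (0.9981) and Gpx4 (0.9980), which changed by -0.55, -0.38 and -0.42. The most opposed were Dnajc13 (-0.9977), Fxyd5 (-0.9965) and Atp11a (-0.9959), with changes of 0.12, 0.061 and 0.34. For Zfp36 the nearest were Tmem243 (0.9967), Sohlh1 (0.9956) and Cd47 (0.9925), with changes of 0.23, 0.20 and 0.22. The most opposed were Nr4a1 (-0.9989), Aen (-0.9963) and Fam216a (-0.9959), with changes of -0.085, -0.17 and -0.18. With 6 arrays in 2 groups and 3766 genes called between them, such values describe these arrays only.

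Most enzymes and adaptors that act with these factors did not pass. In 6 lists of other binding proteins, deadenylases, decapping factors, exosome subunits, BTG and TOB proteins and regulators of ZFP36, 90 genes were tested: 10 rose, 7 fell and 73 did not pass. The 17 calls make 18.9%, where 29.8% of all tested genes were called, and the median change was -0.00070. The count of rises is not firm: it was 4 without LysMCre/Cre replicate 3, 5 without LysMCre/Cre replicate 2 and 14 without KLF2∆/∆ replicate 3, and 14 genes fell without KLF2∆/∆ replicate 2.

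Among 25 other AU-rich and stem-loop binding proteins 2 rose, 3 fell and 20 did not pass. Zc3h12d, a relative of the endonuclease Regnase-1, read 10.03, 10.12 and 10.01 in the arrays labelled KLF2∆/∆, against 9.15, 9.44 and 9.25 in the LysMCre/Cre arrays. The groups did not overlap, and it rose by 0.77 ± 0.069 (SE, adjusted p = 3.25e-08). Zc3h12a, which encodes Regnase-1 itself and was named after its values were seen, changed by 0.023 ± 0.050 (SE, adjusted p = 0.788). Hnrnpab and Hnrnpl, RNA-binding proteins of the hnRNP class, fell by 0.32 and 0.28 (adjusted p = 9.65e-06 and 0.00104). Arid5a, which protects Il6 message against Regnase-1, rose by 0.22 with adjusted p = 0.0184. That call was lost without KLF2∆/∆ replicate 3 (0.0994) or LysMCre/Cre replicates 2 (0.0847) or 3 (0.0894). It was also lost without moderation of the variances (0.224) and without an intensity trend (0.0504).

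Of 15 tested genes in the list of CCR4-NOT and PAN deadenylases, 3 rose and none fell at the adjusted threshold (4 had an unadjusted limma p below 0.05). Not all genes of this list encode a deadenylase themselves. Pan2, the catalytic subunit of the PAN complex, rose by 0.23 ± 0.060 (SE, adjusted p = 0.00687) and lost its call without LysMCre/Cre replicate 3 (0.0573). The CCR4-NOT genes Cnot4 and Cnot6l rose by 0.14 and 0.18 (adjusted p = 0.0225 and 0.0232). Cnot4 lost its call without KLF2∆/∆ replicate 1 (0.0648) and without LysMCre/Cre replicates 1, 2 and 3 (0.116, 0.0608 and 0.076). Cnot6l lost its call without KLF2∆/∆ replicates 1 and 2 (0.0768 and 0.0603) and LysMCre/Cre replicates 2 and 3 (0.0924 and 0.113). Without moderation of the variances Pan2 (0.0583) and Cnot6l (0.108) lost theirs as well, and so did Cnot4 without an intensity trend (0.0628). Pabpc1, the poly(A)-binding protein, changed by -0.070 (adjusted p = 0.105). Of 18 decapping genes 2 rose and none fell (5 had an unadjusted p below 0.05). Dcp1a, a decapping activator, rose by 0.27 ± 0.055 (SE, adjusted p = 0.000745). Patl1, a scaffold between deadenylation and decapping, passed narrowly (0.14, adjusted p = 0.0488). Its call stood without KLF2∆/∆ replicate 1 (0.0331) and was lost without any other single array (0.0558 to 0.219). Of 16 alternatives in all, 11 ended it. Neither Lsm7 (-0.16, adjusted p = 0.0685) nor the exonuclease gene Xrn1 (0.14, adjusted p = 0.0749) was called. Lsm7 passed without LysMCre/Cre replicate 3 (0.0474) and Xrn1 without KLF2∆/∆ replicate 3 (0.00345). Of 16 exosome and SKI genes 2 fell and none rose (4 had an unadjusted p below 0.05). Dis3, the catalytic subunit, read 8.30, 8.48 and 8.28 in KLF2∆/∆ arrays and 8.78, 8.78 and 8.82 in LysMCre/Cre arrays, a change of -0.44 ± 0.069 (SE, adjusted p = 5.27e-05) with no overlap. Exosc5 fell by 0.25 (adjusted p = 0.00731), while Exosc2 and Ttc37 changed by -0.17 and -0.16 (adjusted p = 0.0502 and 0.113). Both passed without KLF2∆/∆ replicate 2 (0.00639 and 0.0165).

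The proteins that switch ZFP36 on and off were called in 5 of 14 cases, 3 higher and 2 lower, or 35.7%, near the 29.8% of all tested genes. Dusp1 encodes a phosphatase that inactivates p38 and thereby lets ZFP36 act. It read 12.74, 12.87 and 12.87 in the arrays labelled KLF2∆/∆, against 12.02, 11.88 and 11.98 in the LysMCre/Cre arrays, and rose by 0.87 ± 0.045 (SE, adjusted p = 1.71e-11). Every KLF2∆/∆ array was higher, and the call stood under all 16 alternatives, not all of which could have ended it. Ppp2r1a and Ppp2cb, the scaffold and a catalytic subunit of the phosphatase PP2A, which removes phosphate from ZFP36, went opposite ways, by 0.12 and -0.18 (adjusted p = 0.00718 and 0.00605). Both lost the call without LysMCre/Cre replicate 2 (0.054 and 0.0607), and Ppp2r1a also without an intensity trend (0.105). Mapkapk3, a kinase akin to MK2, rose by 0.18 (adjusted p = 0.0363). That call was lost without KLF2∆/∆ replicates 2 and 3 (0.126 and 0.0659) and LysMCre/Cre replicates 1 and 3 (0.0913 and 0.184). Of 16 alternatives in all, 9 ended it. Mapkapk2, which encodes MK2 itself, and Mapk14, which encodes a p38 kinase, were named after their values were seen. They changed by -0.024 and 0.011 (limma adjusted p = 0.686 and 0.920), and both overlapped between groups.

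Many messages known as ZFP36 targets changed, in both directions. Of 30 tested, 7 rose, 16 fell and 7 did not pass, which is 76.7% called against 29.8% of all tested genes, with a median change of -0.21. The list was drawn up with earlier results of these data known and consists largely of LPS-induced genes, and Zfp36 itself and Dusp1 are on it. The neutrophil chemokine Cxcl3 read 9.11, 9.21 and 8.68 in the arrays labelled KLF2∆/∆ and 11.04, 11.39 and 11.28 in the LysMCre/Cre arrays, a change of -2.23 ± 0.10 (SE, adjusted p = 2.62e-12). Il6 read 10.44, 10.68 and 10.26 in KLF2∆/∆ arrays and 11.94, 11.97 and 12.23 in LysMCre/Cre arrays, a change of -1.59. Il1b fell by 1.13. Against these, Dusp1 rose by 0.87, and the genes that follow were named after their values were seen. Il10 read 9.28, 9.21 and 9.09 in KLF2∆/∆ arrays and 7.92, 7.90 and 8.07 in LysMCre/Cre arrays, a change of 1.23. Both groups of Il10 values were tight beside that gap. Nos2 and Fos rose by 0.47 and 0.37. Tnf, the classic ZFP36 target, read 13.24, 13.27 and 13.16 in KLF2∆/∆ arrays and 13.21, 13.28 and 13.33 in LysMCre/Cre arrays, with overlap and a change of -0.047 ± 0.037 (SE, adjusted p = 0.390). Ptgs2, Nfkbiz, Nfkbid, Plk3, Socs3 and Tnfaip3 did not pass either (-0.14 to 0.093). Csf2 lay below the intensity filter as a 6-array mean, at 6.92 ± 0.10 in KLF2∆/∆ arrays and 7.69 ± 0.17 in LysMCre/Cre arrays (SD, n = 3 each). The summed intensity of the tested targets was 119799 to 121236 in KLF2∆/∆ arrays and 138196 to 143767 in LysMCre/Cre arrays.

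**Figure D4:**
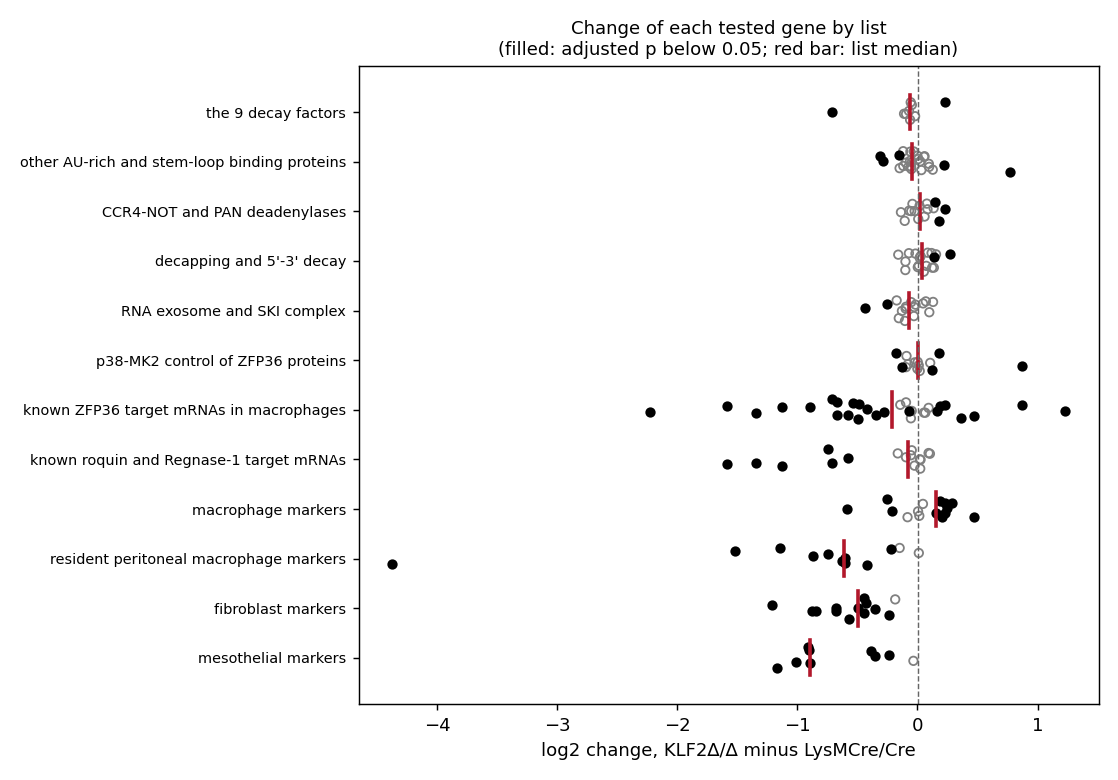
Log2 change (KLF2∆/∆ minus LysMCre/Cre) of every tested gene in each list, 1 point a gene, filled where the adjusted p was below 0.05, with the list median in red and the median of all tested genes as a dashed line. Most decay factors and machinery genes lie near 0, with Zfp36l1, Dis3, Zc3h12d and Dusp1 farther out, whereas ZFP36 target messages spread between -2.23 and 1.23 and fibroblast, mesothelial and resident macrophage markers lie mostly below 0.

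Of 16 tested messages known as roquin or Regnase-1 targets, 6 fell, none rose and 10 did not pass (median change -0.075). The share called was 37.5%, where 29.8% of all tested genes were called in either direction and 16.2% fell. An unadjusted limma p below 0.05 was found for 9 of the 16 and for 4828 of all 12649 tested genes. The leading falls were Il1b, Il6, Cxcl1 (-1.35) and Il12b (-0.71). The lists share 9 tested genes, 30% of the ZFP36 targets and 56.2% of these, and 5 of the 9 fell. Without KLF2∆/∆ replicate 3, 1 target rose. Icos and Tnfrsf4, targets known from T cells, changed by 0.026 and -0.025 (adjusted p = 0.850 and 0.857). The medians of the fibroblast (-0.50), mesothelial (-0.89) and resident macrophage markers (-0.61) apply here too, and their part in the lower signals was not tested.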

How the data were processed

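Values deposited by the authors are log2 intensities of whole probe sets, made with Affymetrix Expression Console and RMA, per the submitters' processing notes. A second deposited table gives the same values as linear intensity, per the file headers (log2 values differ by at most 5.1e-05). The sources used here give no versions, genome build or filters. RMA aligns the arrays' distributions and hides any shift shared by most genes. No slide or scan date was given, so batches were not tested.

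Of 35557 probe sets, 6613 with the lowest identifiers were taken as controls. Of the rest, 21789 name 1 gene, 1621 several and 5534 none. RefSeq supplied current symbols by gene identifier (21698 matched). Each gene was represented by its brightest probe set, and genes with a mean below the 40th percentile were left out. The test was limma 3.58.1 in R 4.3.3 (lmFit, eBayes with an intensity trend, no block), two-sided, tried on simulated data. The number of arrays limits the precision.

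The members, gene lists and tests were chosen with earlier results of these data known. Named genes are the members, Klf2, Lyz2, up to 4 genes of each list and 3 of each marker list with the smallest p, and the nearest 3 and most opposed 3 patterns. Any other gene was named after its values were seen. Figures were drawn with matplotlib 3.10.9.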

Additional observations from a re-analysis of the deposited data

How the results depend on the processing

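Alternatives covered the replicate block, quantile normalization, weighting of arrays, the variance model, other filters, averaging or separating probe sets, the second deposited table, a threshold of 0.01 and leaving out each array. Not all of these could change a result. The second table holds the same values, the 0.01 threshold leaves the fit as it was, and averaging leaves a gene with 1 probe set at its value. Of 205 recomputed counts and paralogue differences, 191 stayed within 1.5 times the reported count or within 1 SD of the reported difference. Within that margin, Btg1 minus Btg2 was 0.0061 without LysMCre/Cre replicate 1, against -0.024 with all arrays. With quantile normalization 3 decay factors fell (Hnrnpd and Btg1 joined Zfp36l1), the median of all genes moved to 0.021, and all genes split into 2120 rises and 1961 falls. Without moderation of the variances 0 decay factors rose (1 at an unadjusted p below 0.05), and calls over all genes dropped to 969 higher and 1155 lower, machinery rises to 6, while roquin and Regnase-1 targets had 1 rise. Machinery rises numbered 5 without an intensity trend and 5 at an adjusted p of 0.01. With the probe sets of a gene averaged, Rc3h1 minus Rc3h2 was -0.032 instead of 0.036. The causes were not tested.

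Leaving out single arrays gave 1 to 3 decay factors lower and 1 higher, 4 to 14 machinery genes higher and 5 to 14 lower, and 0 to 1 roquin and Regnase-1 targets higher. The 3 decay factors lower came without KLF2∆/∆ replicate 2. With the replicate block, 1747 genes were higher and 2077 lower, Zfp36 had adjusted p = 0.000331 and Zfp36l1 6.34e-11, and among the named genes Patl1 lost its call (0.0518) and Exosc2 and Cd209a gained one. The design text speaks of pairs of mice without saying which arrays form one, so the block was run as an alternative. By their values equal numbers were not seen to pair the arrays: deviations from the group means correlated at -0.091, 0.12 and -0.049 across genes for replicates 1, 2 and 3, and only replicate 2 correlated best with its own number.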
